A study of Mus musculus with 6 samples.

Results

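The TGF-beta receptors and Smads examined here are 10 genes of the TGF-beta pathway, namely the ligand gene Tgfb1, the receptor genes Tgfbr1 and Tgfbr2, the co-receptor genes Tgfbr3 and Eng, and Smad2, Smad3, Smad4, Smad6 and Smad7. They were taken by gene symbol: every probe set whose platform annotation names a single gene, and that gene one of these, was kept. This gave 23 of the 44991 probe sets measured, and all 10 genes had at least 1. The series used haematopoietic stem cells (HSC) sorted by flow cytometry from mouse bone marrow, from PU.1 knockdown (PU.1 KD) and from wildtype (WT) animals. Each group had 3 Affymetrix Mouse Genome 430 2.0 arrays, and each array carried RNA pooled from 3 animals. PU.1 is the ETS transcription factor made from the Spi1 gene, and myeloid and B cells need it to form. The sources used here state neither how PU.1 was lowered nor the sort markers, the strain or the age of the mice, and all 6 pools shared the same preparation.

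TGF-beta is secreted in a latent form and, once released, binds the type II receptor, which phosphorylates the type I receptor. The type I receptor then phosphorylates Smad2 and Smad3, which join Smad4, enter the nucleus and control transcription, while Smad6 and Smad7 inhibit the pathway. In bone marrow the pathway is known as a brake on the cycling of HSC.

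The targeted gene was lower in every PU.1 KD pool. Spi1 (probe set 1418747_at) had deposited intensities of 362, 360 and 119 in PU.1 KD pools 1, 2 and 3, against 1120, 718 and 1053 in WT pools 1, 2 and 3. Array medians were 81.4 to 89.0 in PU.1 KD pools and 90.0 to 91.5 in WT pools, and values were brought to a common distribution before testing. Stem cell genes were measured on all arrays: Hlf, a transcription factor gene of HSC, had 1563, 1212 and 2056 in PU.1 KD pools and 1337, 2900 and 1402 in WT pools. Of 8 stem cell genes 3 had higher means in PU.1 KD pools, and the log2 differences, PU.1 KD minus WT, were -0.99 (SE 0.21) for Tek, -0.82 (SE 0.34) for Mecom, 0.43 (SE 0.23) for Fgd5 and 0.28 (SE 0.40) for Procr. The arrays also carried signal of neutrophil granule genes. Elane, the neutrophil elastase gene, had 7059, 5157 and 7227 in PU.1 KD pools and 7344, 1866 and 6957 in WT pools, so WT pool 2 stood below the other 5.

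Across the 23 probe sets, 14 had a higher and 9 a lower mean in PU.1 KD pools, where 51.7% of all probe sets had a higher one, and the median difference was 0.052 on the log2(intensity + 16) scale, beside 0.0090 over all probe sets. Differences here are PU.1 KD minus WT on that scale after quantile normalisation, each with its standard error (SE) from limma fitted over all probe sets. At a Benjamini-Hochberg adjusted p under 0.05, limma called 0 of the 23, beside 0% of all probe sets (0 of 44991). The targeted gene, Spi1, was not called either, with a difference of -1.76 (SE 0.43, limma adjusted p = 0.503). Its exact two-sided permutation p was 0.1. The lack of a call is therefore not evidence that a gene is unchanged. At an unadjusted p under 0.05 it gave 2 of the 23, Eng and Smad6, both with higher means in PU.1 KD pools, where 7.11% of all probe sets reached that level and 3.78% did so with a higher mean. With the values as deposited, 0 of the 23 reached that level, beside 6.98% of all probe sets. With a pseudocount of 1 in place of 16, limma gave 1 of the 23, that of Eng, beside 6.68% of all. The adjusted p of the members ran from 0.662 to 0.986. The PU.1 KD and WT pools did not overlap for 2 of the 23 probe sets, 1 of Eng and 1 of Tgfbr3, beside 12.9% of all. In both the PU.1 KD pools lay above, as in 7.59% of all probe sets.

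The intervals give the size of difference that 3 pools against 3 leave possible. For 20 of the 23 probe sets the 95% interval lay within 1 log2 unit of 0 on each side, and the differences themselves ran from -0.41 to 0.65. By the brightest probe set of each gene, 8 of 10 genes had a higher mean in PU.1 KD pools (6 of 10 with the values as deposited, where Tgfbr1 and Smad2 turned), with a median difference of 0.20. Over all 18186 genes 53.4% had a higher mean and the median difference was 0.018. Counts by direction are descriptions, since genes measured on the same 6 arrays are not independent. In bulk samples such as these, fewer cells of a type and less RNA per cell cannot be told apart.

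**Figure D1:**
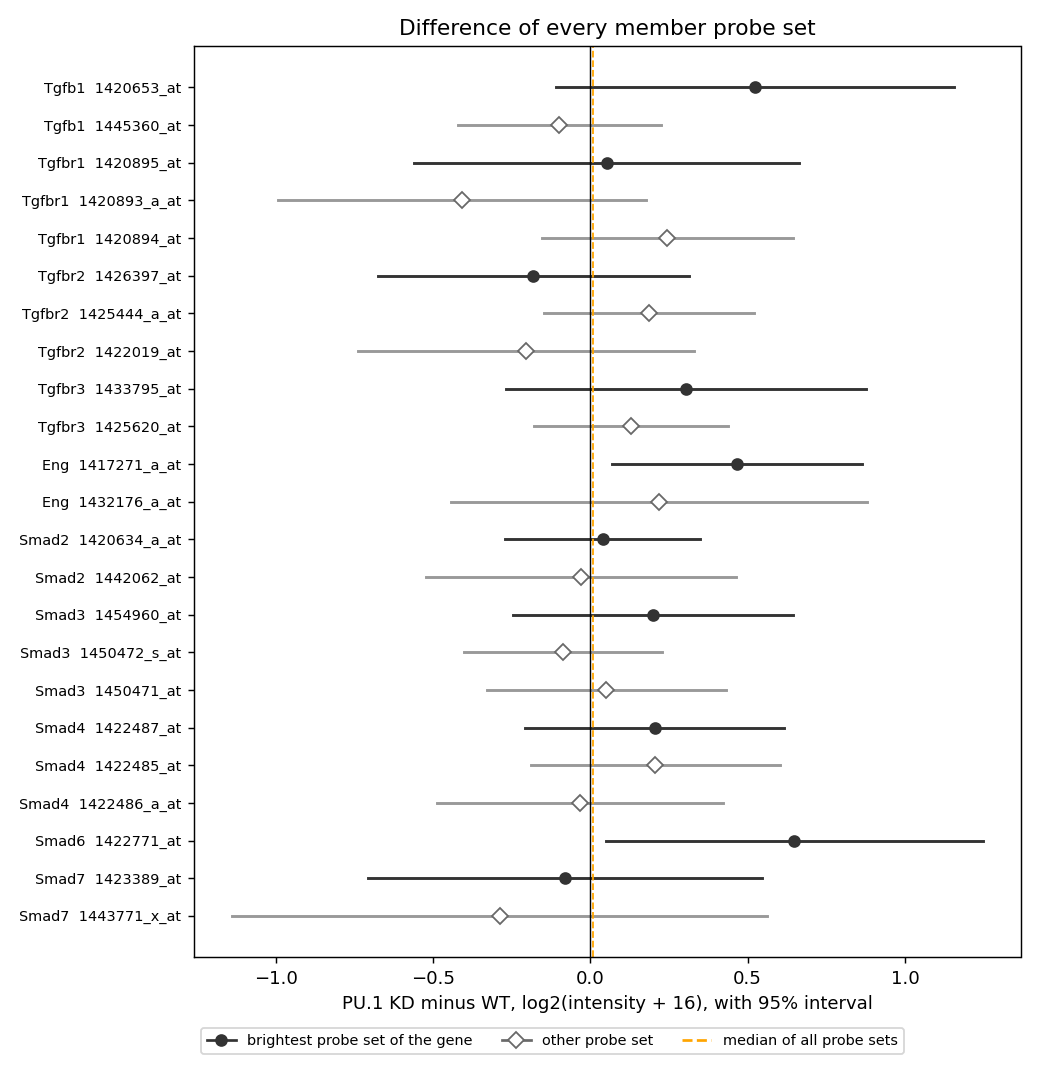
Difference PU.1 KD minus WT on the log2(intensity + 16) scale (horizontal axis) for each of the 23 probe sets, with its 95% interval from limma. Filled circles are the brightest probe set of each gene, open diamonds the others, and the dashed line is the median of all probe sets (0.0090); only the intervals of Eng 1417271_a_at and Smad6 lie wholly on 1 side of 0.

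The ligand was read by a pair of probe sets that did not move together. On 1420653_at, Tgfb1 had intensities of 354, 728 and 370 in PU.1 KD pools, against 386, 274 and 344 in WT pools. The mean was 8.92 ± 0.51 in PU.1 KD pools and 8.40 ± 0.28 in WT pools (log2 scale, SD, n = 3 each), a difference of 0.52 (SE 0.27, limma adjusted p = 0.748 by Benjamini-Hochberg). PU.1 KD pool 2 was far the highest array, and without it the difference was 0.23. The second probe set, 1445360_at, had 251, 272 and 247 in PU.1 KD pools and 293, 279 and 305 in WT pools, a difference of -0.10 (SE 0.14), and pool 2 was not apart there. On this probe set the deposited values of the PU.1 KD pools were all below those of the WT pools, but after normalisation the groups overlapped on both. PU.1 KD pool 2 was also the array with the highest summed intensity of the 6 erythroid marker genes, 7709 beside 2836 and 2765 in PU.1 KD pools 1 and 3, and 4691, 1846 and 4174 in WT pools. By gene, this pool was the highest array for Car1, Klf1 and Epor, and not for Hba-a1, Slc4a1 or Alas2. The same pool had the lowest sum of the 11 megakaryocyte and platelet genes, 3267 beside 9179 and 9242, against 18636, 8728 and 17835 in WT pools. The part of these cell types in the Tgfb1 value was not tested.

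Tgfbr2 encodes the type II receptor, which binds the ligand and starts the signal. Its brightest probe set, 1426397_at, had 904, 1119 and 1464 in PU.1 KD pools and 1086, 1772 and 1267 in WT pools. The ranges overlapped, and the difference was -0.18 (SE 0.21, 95% interval -0.68 to 0.31). Leaving out WT pool 2, the highest array, brought the difference to -0.0045. The other Tgfbr2 probe sets differed by 0.19 (SE 0.14, 1425444_a_at) and by -0.20 (SE 0.23, 1422019_at). On 1422019_at the intensities were at most 35.9 on any array, and the sign turned to 0.035 without PU.1 KD pool 3.

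Tgfbr1 encodes the type I receptor, the kinase that acts on Smad2 and Smad3. On its brightest probe set, 1420895_at, the PU.1 KD pools spread more widely than the WT pools, with 329, 544 and 830 against 485, 593 and 537. The means were nearly the same, 9.12 ± 0.55 in PU.1 KD pools and 9.07 ± 0.12 in WT pools, a difference of 0.052 (SE 0.26). That sign depended on single pools: the difference was -0.23 without PU.1 KD pool 3 and 0.32 without PU.1 KD pool 1. On the remaining probe sets all arrays read below 100, and the differences were -0.41 (SE 0.25) on 1420893_a_at and 0.24 (SE 0.17) on 1420894_at. With signs split in this way, no direction can be given for either signalling receptor.

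The co-receptors do not signal by a kinase of their own and present ligand to the signalling receptors. Tgfbr3 encodes betaglycan, which binds TGF-beta. Its brightest probe set, 1433795_at, had 434, 785 and 587 in PU.1 KD pools and 369, 692 and 471 in WT pools. In each group pool 2 was highest and pool 1 lowest, and the difference of 0.30 (SE 0.25, limma adjusted p = 0.839) was smaller than the spread among pools. The second probe set, 1425620_at, was flat, between 124 and 139 in PU.1 KD pools and between 117 and 129 in WT pools. After normalisation its 3 PU.1 KD values, 7.17 to 7.25, lay just above the 3 WT values, 6.98 to 7.16, and the difference was 0.13 (SE 0.13).

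Eng encodes endoglin, a co-receptor of the TGF-beta family best known from endothelium and also present on HSC. On 1417271_a_at, it had intensities of 586, 659 and 636 in PU.1 KD pools, against 426, 622 and 401 in WT pools. The PU.1 KD pools lay close together and WT pool 2 reached into their range of deposited values, while WT pools 1 and 3 were lower. After normalisation every PU.1 KD pool, at 9.31 to 9.41, was above every WT pool, at 8.72 to 9.22. The means were 9.37 ± 0.05 in PU.1 KD pools and 8.90 ± 0.28 in WT pools, a difference of 0.47 (SE 0.17, 95% interval 0.069 to 0.86), or 1.38-fold on this scale. The limma p was 0.0269 and the adjusted p 0.662; the exact two-sided permutation p was 0.1, the smallest that 3 arrays against 3 allow.

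The other Eng probe set, 1432176_a_at, had 194, 286 and 335 in PU.1 KD pools and 202, 389 and 173 in WT pools. Here WT pool 2 was the highest array, the groups overlapped, and the difference was 0.22 (SE 0.29). Without WT pool 2 the Eng differences were 0.63 and 0.53. Of the 10 stromal and endothelial marker genes, 6 had higher and 4 lower means in PU.1 KD pools, and their summed intensity was 1535 to 4184 in PU.1 KD pools and 1289 to 5612 in WT pools. Cdh5, the VE-cadherin gene that defines endothelium, read 40.1, 29.4 and 45.7 in PU.1 KD pools and 66.5, 46.5 and 37.9 in WT pools, and was named after its values were seen. Pecam1, an adhesion gene of endothelium and platelets, read 88.9, 31.6 and 56.1 in PU.1 KD pools and 31.6, 37.9 and 29.5 in WT pools, an overlap with a difference of 0.60 (SE 0.29). Kdr, a VEGF receptor gene of endothelium, had 105, 82.4 and 89.5 in PU.1 KD pools, against 289, 165 and 195 in WT pools, a difference of -0.99 (SE 0.23) with PU.1 KD pools below. Pdgfrb, a PDGF receptor gene of stromal cells, had 496, 527 and 871 in PU.1 KD pools, against 90.7, 289 and 125 in WT pools, a difference of 2.00 (SE 0.37) with PU.1 KD pools above. The part of endothelial and stromal cells in the Eng values was not tested.

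Promoter windows of RefSeq (GRCm38.p6), running 250 bases before to 50 after an annotated start, were taken for 6 of the 10 genes, 7 windows in all. They were searched on both strands for GAGGAAGT, a core preferred by PU.1, and for the palindrome GTCTAGAC, the form in which Smad3 and Smad4 bind DNA best; the motifs do not overlap. The first occurs in 3.2% and the second in 0.213% of the 32851 windows of the table. Of the 7 windows searched, the first motif was found in that of Eng and the second in that of Smad6. The motifs were chosen after the values were seen, and Tgfbr3, Smad2, Smad4 and Smad7 were not searched. Both windows are shown 5′ to 3′ on the strand of the gene, with the match in capitals (in Eng the match is ACTTCCTC, the reverse complement of the core). A match is a stretch of letters and not evidence that a factor binds there.
Eng, chr2:32646345-32646644, plus strand: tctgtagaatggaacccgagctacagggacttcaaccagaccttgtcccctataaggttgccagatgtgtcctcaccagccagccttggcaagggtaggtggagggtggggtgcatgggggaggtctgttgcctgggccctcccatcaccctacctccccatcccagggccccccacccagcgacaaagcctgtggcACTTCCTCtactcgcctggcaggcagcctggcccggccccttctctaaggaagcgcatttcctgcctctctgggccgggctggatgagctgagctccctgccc
Smad6, chr9:64022010-64022309, minus strand: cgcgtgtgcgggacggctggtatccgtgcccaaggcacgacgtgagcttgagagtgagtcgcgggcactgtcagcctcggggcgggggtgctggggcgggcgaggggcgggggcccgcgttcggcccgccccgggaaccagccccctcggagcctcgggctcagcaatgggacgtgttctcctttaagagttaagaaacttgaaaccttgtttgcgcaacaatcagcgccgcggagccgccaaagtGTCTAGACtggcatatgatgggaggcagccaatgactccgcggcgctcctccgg
The match begins 53 bases before the Eng start and 4 bases before the Smad6 start.

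Smad2 and Smad3 are the Smads phosphorylated by the TGF-beta type I receptor. Smad2 showed the smallest difference of any gene's brightest probe set. On 1420634_a_at it had 527, 604 and 677 in PU.1 KD pools and 596, 682 and 570 in WT pools, a difference of 0.039 (SE 0.13, 95% interval -0.27 to 0.35). The other probe set, 1442062_at, had 116, 104 and 183 in PU.1 KD pools and 144, 177 and 115 in WT pools, a difference of -0.030 (SE 0.21). Both signs turned under other settings, 1420634_a_at to -0.034 with the values as deposited.

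Smad3 on 1454960_at read 833, 883 and 995 in PU.1 KD pools, against 742, 1117 and 662 in WT pools. WT pool 2 was the highest of all arrays and WT pools 1 and 3 were the lowest, so the PU.1 KD pools lay between. The means were 9.87 ± 0.08 in PU.1 KD pools and 9.67 ± 0.34 in WT pools, a difference of 0.20 (SE 0.19, limma adjusted p = 0.863), which became 0.40 without WT pool 2. The dimmer Smad3 probe sets differed by -0.087 (SE 0.14, 1450472_s_at) and 0.051 (SE 0.16, 1450471_at), and on these all arrays read below 100.

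Smad4 is the common partner of the receptor-activated Smads. Its 3 probe sets gave intensities of 548 to 897 in PU.1 KD pools and 578 to 972 in WT pools, with differences of 0.20 (SE 0.18, 1422487_at), 0.21 (SE 0.17, 1422485_at) and -0.031 (SE 0.20, 1422486_a_at). On 1422487_at the values were 642, 897 and 867 in PU.1 KD pools and 689, 928 and 592 in WT pools. WT pool 2 was the highest WT array on each of the 3, and the groups overlapped on each. Across the 6 arrays the pairwise Pearson r of these probe sets was 0.71 to 0.77, a description in which the points share arrays.

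**Figure D2:**
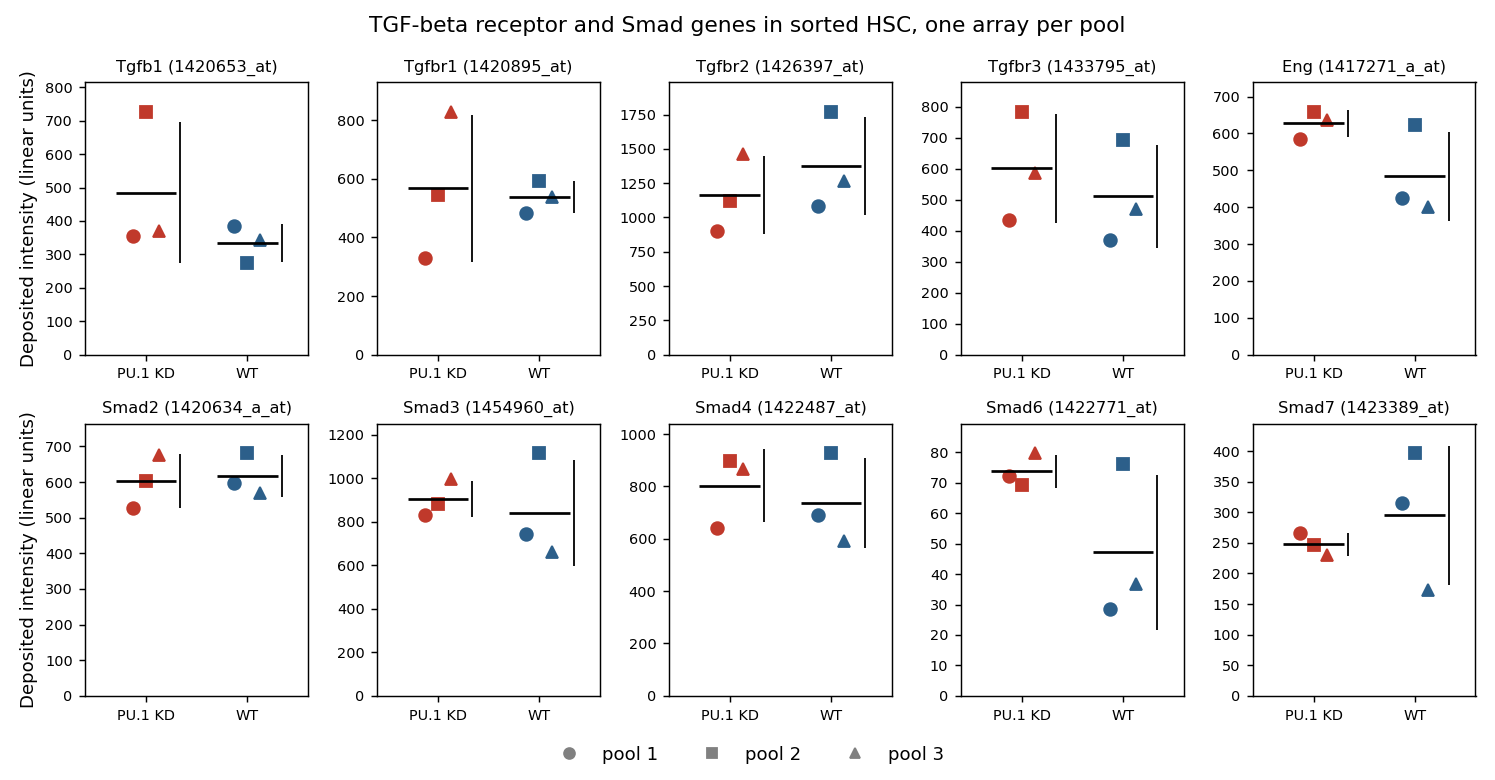
Deposited intensity in linear units (vertical axes, each from 0) of the brightest probe set of each of the 10 genes, with PU.1 KD pools in red and WT pools in blue; symbols mark pools 1, 2 and 3, horizontal bars are group means and thin vertical lines are ± 1 SD (n = 3 pools per group). Eng and Smad6 show 3 PU.1 KD pools close together with WT pools 1 and 3 below them and WT pool 2 near them, while the groups of the other genes overlap widely.

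Neither inhibitory Smad passed the adjusted test. Smad6, which is induced by and restrains mainly the BMP branch, had 72.3, 69.1 and 79.9 on its only probe set, 1422771_at, in PU.1 KD pools, against 28.4, 76.2 and 36.8 in WT pools. The PU.1 KD pools were alike, WT pool 2 was level with them, and WT pools 1 and 3 read far lower. The means were 6.52 ± 0.07 in PU.1 KD pools and 5.87 ± 0.54 in WT pools, a difference of 0.65 (SE 0.26, 95% interval 0.050 to 1.25), or 1.57-fold on this scale. This was the largest difference among the 23 probe sets, with a limma p of 0.0372, an adjusted p of 0.676 and an exact permutation p of 0.2. Smad6 was also a dim probe set, with a mean at the 38.5th percentile of all, and folds of dim probe sets are understated by the pseudocount.

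Smad7, which blocks the type I receptor and is itself induced by TGF-beta, had 267, 246 and 230 in PU.1 KD pools and 316, 397 and 172 in WT pools on 1423389_at. The PU.1 KD pools fell inside the range of the WT pools, and the difference was -0.080 (SE 0.27). On 1443771_x_at it had 120, 281 and 267 in PU.1 KD pools and 237, 470 and 182 in WT pools, a difference of -0.29 (SE 0.37), the widest SE of the members. Without WT pool 2 the differences were 0.14 and 0.060, so the sign of Smad7 depended on single pools.

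WT pool 2 was the highest of the 3 WT pools for 9 of the 10 genes by their brightest probe set, all but Tgfb1, and for 14 of the 23 probe sets. Over all 18186 genes it was the highest WT pool for 34.7%, and over all probe sets for 36%. The same array had the highest summed intensity of the 8 stem cell marker genes, 9060 in WT pool 2 beside 4666 and 5001 in WT pools 1 and 3, while the PU.1 KD pools had 4407, 4827 and 6363. Its neutrophil sum over 8 genes was the lowest, 16805 beside 44715 and 33314 in WT pools 1 and 3, with 46564, 35730 and 42639 in PU.1 KD pools. Beside these sums, Eng and Smad6 were high in the PU.1 KD pools and in WT pool 2, and lower in WT pools 1 and 3. By list, higher means in PU.1 KD pools were found for 3 of 8 stem cell, 6 of 8 neutrophil, 1 of 11 megakaryocyte and platelet, 3 of 6 erythroid, 0 of 7 monocyte and macrophage, 1 of 7 B cell, 4 of 5 T and NK cell, and 4 of 7 mast cell, basophil and eosinophil genes. None of these genes was at or below 0 on all 6 arrays. The part of cell composition in the member values was not tested.

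**Figure D3:**
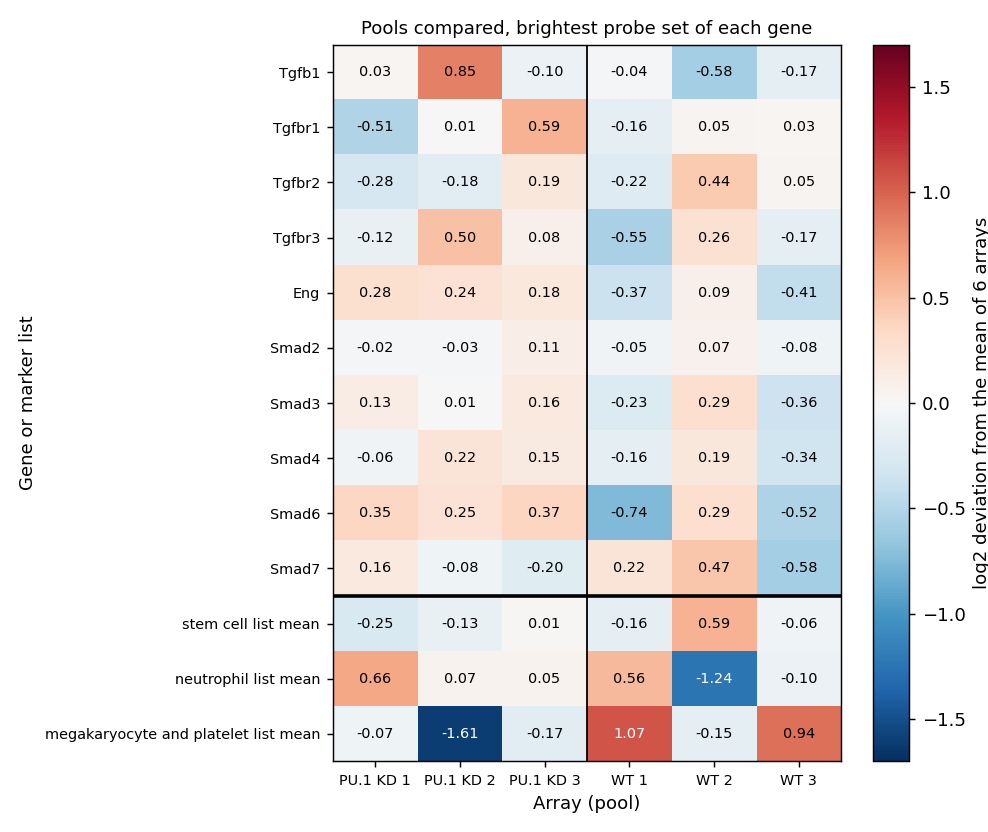
Deviation of each array from the mean of the 6 arrays (colour and printed value, log2 units) for the brightest probe set of each gene and, under the black line, for the mean of the stem cell, neutrophil and megakaryocyte marker lists; PU.1 KD pools are to the left of WT pools. WT 2 is above WT 1 and WT 3 in every gene row other than Tgfb1, and it is highest in the stem cell row and lowest in the neutrophil row.

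Left-out pools changed the member values accordingly. Without WT pool 2, limma gave an unadjusted p under 0.05 for 4 of the 23 probe sets, where 8.58% of all probe sets reached it. These were Smad6 with a difference of 0.95 (SE 0.16, adjusted p = 0.203), both Eng probe sets, and Smad3 1454960_at (0.40, SE 0.15, adjusted p = 0.542). No member passed the adjusted threshold without any pool. Smad6 ranged from 0.44 to 0.95 and Eng 1417271_a_at from 0.37 to 0.63 over the 6 left-out pools, always higher in PU.1 KD pools. With WT pool 1 or WT pool 3 left out in place of pool 2, 0 of the 23 reached an unadjusted p under 0.05, where 5.35% and 5.75% of all probe sets did. With PU.1 KD pool 1, 2 or 3 left out the member counts were 0, 0 and 2, beside 6.17%, 7.09% and 6.47% of all.

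**Figure D4:**
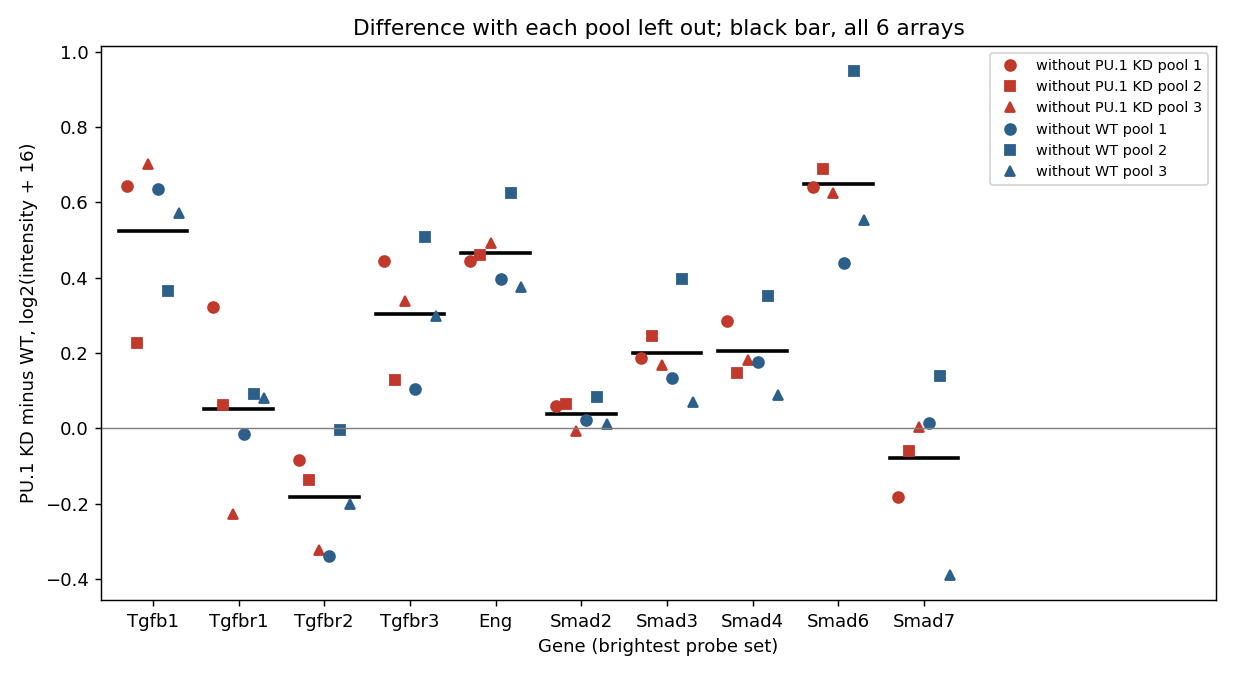
Difference PU.1 KD minus WT on the log2(intensity + 16) scale (vertical axis) of the brightest probe set of each gene with all 6 arrays (black bar) and with each pool left out in turn (red symbols, a PU.1 KD pool; blue symbols, a WT pool). The blue square, without WT pool 2, is the highest value for Tgfbr2 (-0.0045), Tgfbr3 (0.51), Eng (0.63), Smad2 (0.084), Smad3 (0.40), Smad4 (0.35), Smad6 (0.95) and Smad7 (0.14). It is not the highest for Tgfb1 or Tgfbr1. The values of Tgfbr1, Smad2 and Smad7 lie on both sides of 0.

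Members resembled each other to different degrees over the 6 arrays. By the brightest probe sets, the closest pair by Pearson r was Eng and Smad6 (Pearson r = 0.96, Spearman rho = 0.66), followed by Smad3 and Smad6 (r = 0.89, rho = 0.77), and the most opposed pair was Tgfb1 and Tgfbr2 (r = -0.66, rho = -0.77). By Spearman rho the highest value was 0.94, for Tgfbr1 and Tgfbr2, Tgfbr3 and Smad4, and Smad2 and Smad3, and not for Eng and Smad6. Probe sets of 1 gene did not always follow each other, with r = -0.72 between Tgfbr1 1420895_at and 1420893_a_at. Eng had the smallest p of the genes by the brightest probe set, and the genes outside the set with the pattern most like it were Pck2 (r = 0.997), Mknk2 (r = 0.996) and Ccnd2 (r = 0.995), out of 19183 probe sets compared over 6 arrays. Pck2 is a mitochondrial phosphoenolpyruvate carboxykinase gene, Mknk2 a kinase gene of the MAP kinase pathway and Ccnd2 the cyclin D2 gene. Pck2 read 246, 282 and 255 in PU.1 KD pools and 150, 248 and 141 in WT pools, the same order of low WT pools. These correlations are descriptions: all points share the arrays, and so many candidates yield high values over 6 points.

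Beyond the members, 73 further genes of the pathway were examined by their brightest probe set, of which 37 had higher and 36 lower means in PU.1 KD pools, with a median difference of 0.0039. Limma called 0 of the 73 at an adjusted p under 0.05. At an unadjusted p under 0.05 there were 4, or 5.48%, beside 7.11% of all probe sets, and all 4 had lower means in PU.1 KD pools: Bambi, Tgfbi, Rhob and Junb, the last of which was named after its value was seen. The first share takes 1 probe set per gene and the second every probe set, dim ones included. With only probe sets above the 60th percentile of the mean fitted, 8.2% reached that level. Among ligand and activation genes 11 of 21 had higher means, as did 22 of their 41 probe sets. Inhba, an activin subunit gene (0.47, SE 0.25), and Tgfb3, another TGF-beta ligand gene (0.34, SE 0.16), had higher means in PU.1 KD pools, and Itgav, an integrin subunit gene of TGF-beta activation (-0.51, SE 0.23), and Thbs1, the thrombospondin gene (-0.46, SE 0.22), lower ones.

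Of the 10 other receptor genes, 5 had higher means. Over all 28 probe sets of these genes, 9 had higher means and the median difference was -0.12. Bambi, a decoy receptor gene without a kinase, read 80.3, 103 and 85.8 in PU.1 KD pools, against 182, 133 and 154 in WT pools, so every PU.1 KD pool was below every WT pool. Its difference was -0.62 (SE 0.17, limma adjusted p = 0.545). The activin receptor genes Acvr1b and Acvr2b had differences of 0.35 (SE 0.25) and 0.16 (SE 0.30), and Bmpr2, the BMP type II receptor gene, -0.35 (SE 0.35). The BMP Smads were close to 0, with Smad1 at -0.026 (SE 0.17), Smad5 at 0.083 (SE 0.19) and Smad9 at -0.014 (SE 0.15).

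Among 20 Smad regulators and partners, 10 had higher means, as did 29 of their 60 probe sets. Skil, which encodes the Smad corepressor SnoN, read 210, 550 and 466 in PU.1 KD pools and 777, 598 and 574 in WT pools. The groups did not overlap, PU.1 KD pool 1 was far the lowest, and the difference was -0.68 (SE 0.30, limma adjusted p = 0.711). The ubiquitin ligase gene Rnf111 had a difference of -0.23 (SE 0.21), and the corepressor gene Tgif1 and the ubiquitin ligase gene Nedd4l had 0.32 (SE 0.22) and 0.22 (SE 0.15).

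Of 19 genes known as TGF-beta targets in other cells, 10 had higher and 9 lower means, with a median difference of 0.095. Over all 38 probe sets of these genes, 18 had higher means and the median difference was -0.048. Tgfbi, the TGF-beta induced matrix protein gene, read 71.7, 83.0 and 36.0 in PU.1 KD pools on 1437463_x_at, against 247, 283 and 211 in WT pools, a difference of -1.69 (SE 0.26, limma adjusted p = 0.378). Rhob, a small GTPase gene, read 752, 905 and 734 in PU.1 KD pools and 1735, 1738 and 1315 in WT pools, a difference of -0.92 (SE 0.16, adjusted p = 0.382). Junb, an AP-1 gene, had a difference of -0.69 (SE 0.15). Hes1, a transcriptional repressor gene, and Pmepa1, a feedback inhibitor gene of TGF-beta signalling, had differences of 0.38 (SE 0.17) and 0.31 (SE 0.15). The groups did not overlap for 6 of the 19 targets: PU.1 KD pools lay below WT pools for Tgfbi, Rhob and Junb, and above them for Hes1, Pmepa1 and Cdkn2b, the last of which was named after its values were seen. Over all 73 further genes, by the brightest probe set, the groups did not overlap for 10, beside 12.9% of all probe sets, dim ones included. The cyclin-dependent kinase inhibitor genes Cdkn1b and Cdkn1c, which restrain the cycling of HSC, had differences of -0.14 (SE 0.36) and -0.16 (SE 0.31). Cdkn1b and Cdkn1c were named after their values were seen.

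**Figure D5:**
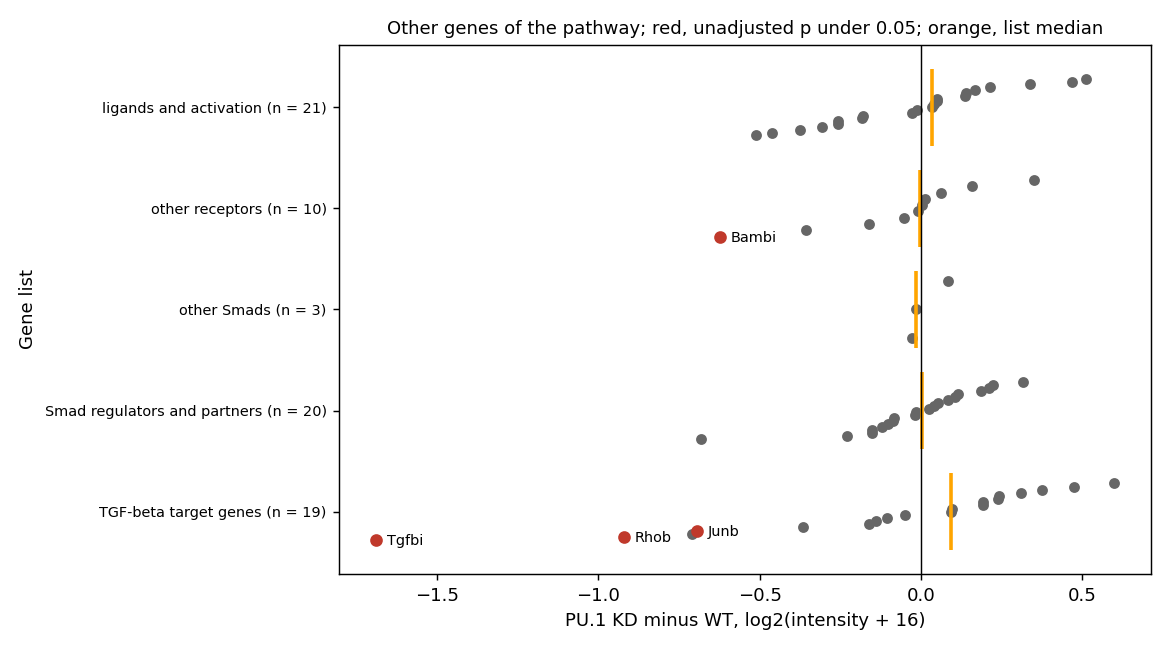
Difference PU.1 KD minus WT on the log2(intensity + 16) scale (horizontal axis) of 73 further genes of the pathway, 1 point per gene by its brightest probe set, in 5 lists; red points with names have an unadjusted limma p under 0.05 and orange bars are list medians. The medians lie between -0.014 and 0.095, and the 4 red points are all below 0.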

How the data were processed

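HSC RNA of 3 PU.1 KD and 3 WT pools was amplified in 2 rounds, labelled with biotin and read in 1 channel, per the labels. The deposited values are probe set intensities that the authors had processed, on a linear scale. The sources used here do not state their software, background correction or scaling; 264 to 409 intensities on each array were negative. Such amplification favours 3' ends. Values under 1 were set to 1, log2(intensity + 16) was taken and the arrays, whose medians on that scale differed by up to 0.143, were quantile normalised. All 44991 probe sets entered a two-sided test by limma 3.58.1 (lmFit, then eBayes) under R 4.3.3, and p-values were adjusted by Benjamini-Hochberg, with a threshold of 0.05. A single value was also given an exact permutation test, which cannot go below 0.1. The number of arrays limits the precision.

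Of the probe sets, 34921 had 1 symbol, 930 several and 9140 none. The brightest probe set stands for a gene in counts by gene. Probe sets ending in _a_at can read several transcripts of a gene, and those ending in _s_at or _x_at can also read other genes. The members and gene lists were chosen with earlier results of these data known. Of 75 further pathway symbols 73 were matched. The rule for named genes took all members, Spi1, up to 2 genes per direction of smallest p in each pathway list, and the 3 genes most like the member of smallest p. Outside the rule, Hlf, Elane, Cdh5, Junb, Cdkn2b, Cdkn1b, Cdkn1c and the erythroid marker genes were named after their values were seen. The marker genes Tek, Mecom, Fgd5, Procr, Pecam1, Kdr and Pdgfrb were also outside it, picked among those of smallest p per direction in their lists. Promoter motifs were chosen after the values were seen. The marker lists were stem cell, megakaryocyte and platelet, stromal and endothelial, neutrophil, erythroid, monocyte, B cell, T and NK cell, and mast cell, basophil and eosinophil genes. The fit was tested on simulated data with 44991 probe sets of this comparison. Of 100 planted changes each, it recovered 45% of 2-fold and 83% of 4-fold ones. These rates describe the planted probe sets and were not worked out by brightness or by cell composition of the pools. They cannot be read as the power for single members, among them the dim probe set of Smad6, nor as the power on the measured arrays. On the measured arrays limma called 0 of 44991 probe sets at the adjusted threshold. Spi1, the targeted gene, was among those not called, with a difference of -1.76 (SE 0.43, limma adjusted p = 0.503).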

Additional observations from a re-analysis of the deposited data

How the results depend on the processing

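Over 16 alternatives (no normalisation, median centring, pseudocounts of 1 and 64, filters on dim probe sets, eBayes with a trend or robust, array weights, a replicate block and each pool left out), 0 member values passed the adjusted threshold, and 15 of 23 member probe sets kept their sign in each alternative run. Counting every probe set of the 73 further pathway genes in place of the brightest also gave 0 calls. A dim probe set has no value under a filter that removes it. The filters, eBayes with a trend or robust, and the replicate block cannot change a difference, only its SE and p. A sign kept in those runs was fixed in advance, so only the remaining alternatives bear on signs. With the values as deposited, Tgfbr1 1420895_at was -0.016 and Smad2 1420634_a_at -0.034. With array weights, Smad2 1442062_at was 0.034, Smad3 1450471_at -0.032, Smad4 1422486_a_at 0.081 and Smad7 1423389_at 0.00040. With 1 pool left out, the ranges were -0.23 to 0.32 for Tgfbr1 1420895_at, -0.39 to 0.035 for Tgfbr2 1422019_at, -0.0079 to 0.084 for Smad2 1420634_a_at, -0.21 to 0.12 for Smad2 1442062_at, -0.060 to 0.13 for Smad3 1450471_at, -0.14 to 0.17 for Smad4 1422486_a_at, -0.39 to 0.14 for Smad7 1423389_at and -0.55 to 0.060 for Smad7 1443771_x_at. The cause was not tested beyond the array left out. At an unadjusted p under 0.05, limma gave 2 members with all arrays, 0 with the values as deposited and 1 with a pseudocount of 1. Over all probe sets, limma called 0 with all arrays and 0 to 2 with a pool left out. Another scaling moved the share with higher values among all probe sets at an unadjusted p under 0.05: 34.4% with the values as deposited, 53.1% after quantile normalisation.

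The fit with the replicate number as a block called 0 members. Each number holds 1 array per group, so the block cannot change a difference, and Spi1 stayed at -1.76 by design. Its SE was 0.39 with the block and 0.43 without. Same-numbered pools had deviation correlations of 0.178, 0.061 and -0.039, and differently numbered pools -0.198 to 0.154. The value of 0.178, for pools numbered 1, was the highest of all. The numbers were not taken as pairs in the main fit, and these few values do not settle whether they are. The file gives no detection calls, so which dim probe sets lie above background is unknown.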
